A study of Ovis aries and Mus musculus with 10 samples.

Results

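Mammary gland of CD1 mice, an outbred stock, at lactation day 10 was compared with gland at lactation day 2, that is, an established with an early stage of milk production. Each day was represented by 1 Agilent microRNA (miRNA) array, of 10 arrays in the series. The series also held mouse gland from virgin animals and from gestation days 10 and 17, and 5 arrays of sheep gland. The mice carried no treatment, per the labels, and the number and age of the animals behind an array are not given in the sources used here. Total RNA came from snap-frozen whole gland, so a value is an average over all cell types of the tissue. The 149 miRNAs described here were those with a mouse probe that Agilent's software marked as detected on at least 1 of the 2 arrays, out of 567 mouse miRNAs on the array and 267 detected on at least 1 of the 10 arrays. Of the 149, 120 were detected on both days, 5 at day 10 alone and 24 at day 2 alone.

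miRNAs are short RNAs that guide an Argonaute protein to messenger RNAs, mostly through the seed near the 5′ end of the miRNA, and lower the stability and translation of those messages. Members of a family share a seed, and members of a genomic cluster are often cut from 1 primary transcript. Within the gland the miR-200 family marks epithelium, miR-199a and miR-214 mark stroma, and several miRNAs, among them miR-148a, are known to be plentiful in milk. Gland growth falls mostly in gestation, and secretion by alveolar epithelium dominates in lactation.

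The day 10 array was dimmer than the day 2 array, so the scaling matters to every value below. Over the 94 miRNAs that all 10 arrays detected, the 75th percentile was a signal of 246 at day 10 and 394 at day 2, a ratio of 0.623, and the day 10 array had the lowest of the 10 values. Of the bright control probes, 5 were at 0.465 to 0.540 of their day 2 signal, while the corner control miRNABrightCorner30 was at 0.903. The negative control spots had medians of 4.17 at day 10 and 4.18 at day 2. Each array was divided by its own 75th percentile. A value given as a scaled signal is therefore relative to that percentile, and a log2 difference is day 10 minus day 2 on that scale. A floor was put at a scaled signal of 0.0290 (log2 -5.11), and 17 of the 149 miRNAs lay at it on both arrays. Errors are standard errors between the spots of a miRNA, of which there were 13 to 20 per array (median 20). They cover spots within the 2 arrays only. With 1 array a day no test across animals was possible, and no p-value is given: the difference between days cannot be told apart from the difference between 2 samples.

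At least 2-fold higher at day 10 were 9 miRNAs: miR-375, miR-689, miR-146b, miR-181a, miR-200a, miR-1224, miR-210, miR-29a and miR-16. At least 2-fold lower on the scaled values with the floor were 6: miR-93, miR-199a-5p, miR-18a, miR-19a, miR-322 and miR-342-3p. For miR-199a-5p and miR-18a no probe was well above background at day 10, so their calls rest on values at or near the floor. The 9 and the 6 make up 6.04% and 4.03% of the 149 miRNAs, or 10.1% together, and the remaining 134 differed by less. Among the 97 miRNAs with a probe well above background on both arrays, 9.28% were higher and 4.12% lower by this measure. The median difference over the 149 was 0, the middle 50% lay between -0.40 and 0.47, and 23 more miRNAs were 0.5 to 1 higher and 26 more 0.5 to 1 lower on the log2 scale. The nearest to the 2-fold line on either side of it were miR-16 (1.02) and miR-29b (0.98) among the higher, and miR-342-3p (-1.01) and miR-199b (-0.97) among the lower. The split of 9 higher and 6 lower moved with the scaling: it was 2 and 31 without scaling, 13 and 3 when the arrays were scaled to the 5 bright control probes, and 33 and 0 in the authors' value table. With normexp background correction and an offset of 50 it was 4 and 0. The 6 lower miRNAs then lay between -0.57 for miR-322 and 0.020 for miR-199a-5p, so that none was called. The 9 higher ones stayed above 0 under every setting run. Settings that only rescale the arrays moved values by a median of 0.68 or less, so there the choice alone fixes this. Fewer of the 9 stayed past 2-fold. With normexp these were miR-375, miR-146b, miR-181a and miR-200a, and without scaling miR-375 and miR-689. With quantile normalization they were miR-375, miR-689, miR-181a and miR-16, while miR-146b came to 0.76. With the brightest probe they were miR-375, miR-689, miR-146b, miR-181a and miR-200a.

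**Figure D1:**
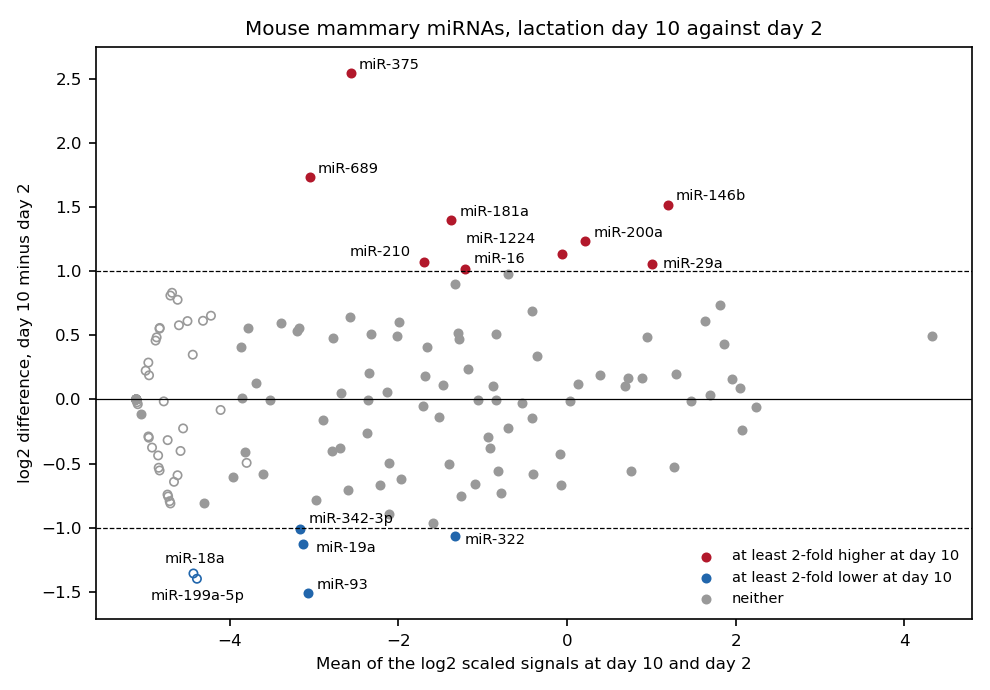
The vertical axis shows the log2 difference, day 10 minus day 2, of each of the 149 miRNAs, and the horizontal axis the mean of its 2 log2 scaled signals. Filled points had a probe well above background on both arrays and open points did not, and dashed lines mark 2-fold. The 9 red points range from 1.02 to 2.55 and the 6 blue points from -1.51 to -1.01.

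miR-375 had the largest difference of the 149. This miRNA was first found in pancreatic islets, where it restrains insulin release, and it is also made by secretory epithelia. Its signal before scaling was 100 at day 10 and 27.6 at day 2. Scaled signals were 0.408 at day 10 and 0.0699 at day 2, a 5.84-fold difference (log2 2.55 ± 0.05). The size depended on background correction, with a log2 difference of 1.19 under normexp, the lowest of the settings run, and 3.22 in the authors' table, the highest. Of its 2 probes, 1 was well above background on both arrays and gave 2.47 by itself. The probe target lay at chr1:74947235-74947250 on mouse build mm9. On the mouse arrays before lactation its scaled signal stood at the floor, and on the log2 scale it was -3.84 at lactation day 2 and -1.29 at day 10. In sheep gland it was at the floor at gestation day 125 and at -0.97 at lactation day 60.

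miR-146b, which dampens innate immune signalling by repressing Traf6 and Irak1, had a signal of 949 at day 10 and 532 at day 2. Scaled signals were 3.87 and 1.35, a 2.87-fold difference (log2 1.52 ± 0.01), and its 2 probes gave 1.51 and 1.58 (chr19:46417283-46417301). Its log2 scaled signal was -3.83 in virgin gland, -3.12 by gestation day 10, -0.85 by gestation day 17, 0.43 by lactation day 2 and 1.95 by lactation day 10. Each of these levels was above the one before. Its paralogue miR-146a, with the same seed, had no probe well above background on either day.

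miR-181a, known from lymphocytes, where it tunes antigen receptor signalling, had a signal of 154 at day 10 and 93.5 at day 2. It was 2.64-fold higher after scaling (log2 1.40 ± 0.02), with the lower of its probes at 1.37 (chr1:139863054-139863067). Its level was also above the preceding array at every stage: -5.11, -4.89, -3.24, -2.08 and -0.68 on the log2 scale from virgin gland to lactation day 10. miR-200a, which represses the transcription factors Zeb1 and Zeb2 and so keeps cells epithelial, had a signal of 437 at day 10 and 299 at day 2 (chr4:155429020-155429037). After scaling it was 2.35-fold higher (log2 1.23 ± 0.02), with probes at 1.22 and 1.28. For miR-146b, miR-181a and miR-200a, and also for miR-210, the day 10 level was the last of 5 ascending levels.

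The other 5 of the 9 were closer to 2-fold or had weaker signals. miR-689 had a signal of 53.9 at day 10 and 26.0 at day 2 (log2 1.73 ± 0.05), with 1 of its 2 probes well above background on both arrays. miR-1224, a mirtron, meaning that splicing rather than Drosha frees its precursor, had a signal of 348 at day 10 and 254 at day 2 (log2 1.14 ± 0.05). miR-210, the miRNA most consistently induced by hypoxia, had a signal of 110 at day 10 and 84.1 at day 2 (log2 1.07 ± 0.03). miR-29a, a repressor of collagen and other matrix genes, had a signal of 710 at day 10 and 547 at day 2 (log2 1.06 ± 0.03), and its probes lay on either side of 2-fold, the lower at 0.87. miR-16, which represses cyclins and Bcl2, had a signal of 151 at day 10 and 119 at day 2 (log2 1.02 ± 0.02). All 9 were brighter at day 10 than at day 2 in unscaled signal. The choice fixes this: with a scaling ratio of 0.623, a miRNA above the floor cannot be 2-fold higher after scaling otherwise. Of the 7 with 2 or more probes well above background on both arrays, all probes were above 0 for 7 and past 2-fold for 6.

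**Figure D2:**
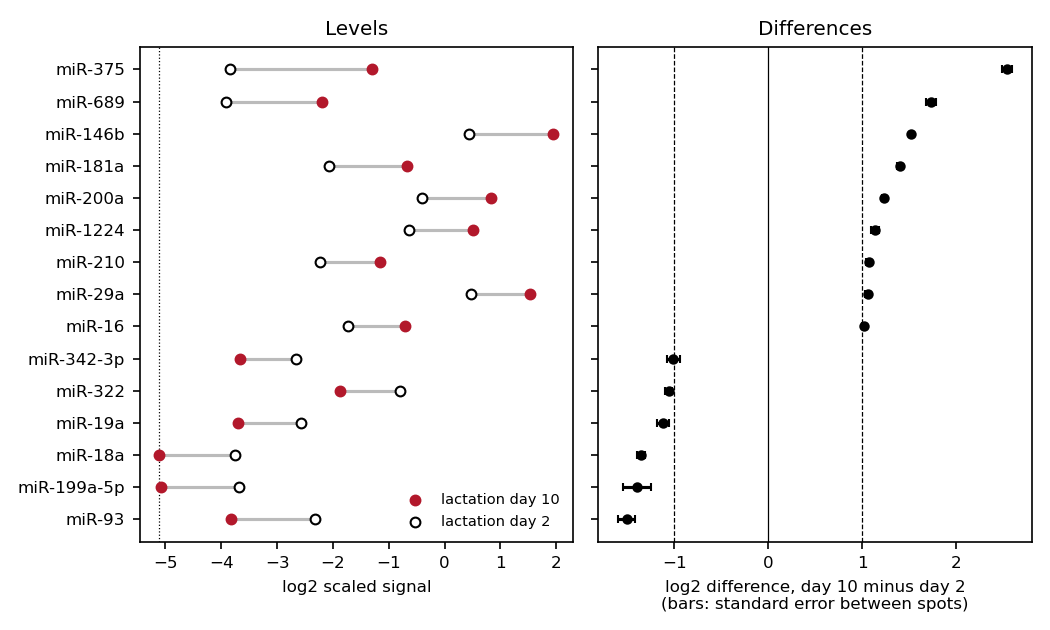
The left panel shows the log2 scaled signal of the 15 miRNAs at day 10 (red) and day 2 (open), with the floor dotted, and the right panel their log2 differences with the standard error between spots. miR-18a lies at the floor of -5.11 at day 10, and miR-199a-5p just above it.

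miR-93 was the lowest of the 149 relative to day 2. It belongs to the miR-106b-25 cluster in an intron of Mcm7, a DNA replication gene, and targets the cell cycle inhibitor p21. Its signal was 17.3 at day 10 and 79.1 at day 2, a scaled difference of -1.51 ± 0.09, and 1 of its 2 probes was well above background on both arrays and gave -1.33 (chr5:138606802-138606817). miR-19a, of the miR-17-92 cluster, had a signal of 18.9 at day 10 and 66.3 at day 2 (-1.12 ± 0.06). With a single probe well above background on both arrays it came to -0.93, short of 2-fold. miR-18a, of the same cluster, had no probe well above background at day 10, with a signal of 3.27, against 29.3 at day 2. Its day 2 level did not exceed the weakest probe called well above background at day 10, so no fold is given for it.

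miR-322, the rodent counterpart of human miR-424, had a signal of 67.4 at day 10 and 226 at day 2 (-1.06 ± 0.04), and both its probes were past 2-fold, the nearer to 0 at -1.04 (chrX:50407483-50407504). miR-342-3p, a leukocyte-rich miRNA, had a signal of 19.3 at day 10 and 62.4 at day 2 (-1.01 ± 0.07), and its 1 probe well above background on both arrays gave -0.91. miR-199a-5p, made in fibroblasts, had a signal of 7.22 at day 10, where no probe was well above background, and 30.5 at day 2. It was at least 1.02-fold lower, the fold being taken against the weakest probe well above background at day 10. Of the 6 lower miRNAs, 4 were thus well above background on both arrays. At day 10, 5 of the 6 had signals of 3.27 to 19.3, and miR-322 had 67.4. Low signal moved with the lower calls, and its part was not tested.

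Where the 15 stood on the other mouse arrays is given as a description, since day 10 and day 2 enter both the choice and the course. The 149 hold differences of both signs, so the shares given beside the 15 differ in part through the choice alone. Day 10 was the highest of the 5 mouse arrays for all 9 higher miRNAs, against 54 of the 149 (36.2%). Day 10 was the lowest for 5 of the 6 lower ones, against 42 of the 149 (28.2%), and the exception was miR-19a, at -3.70 at day 10 and -4.42 in virgin gland. Not all courses ran one way. miR-1224 and miR-29a were higher in virgin gland (0.10 and 0.73) than at lactation day 2 (-0.63 and 0.47), and miR-16 was lowest at day 2 (-1.72), compared with -1.13 in virgin gland and -0.70 at day 10. miR-93, miR-19a and miR-18a were highest at gestation day 17, at -1.73, -2.34 and -3.16. miR-322, miR-199a-5p and miR-342-3p were highest at gestation day 10, at 0.32, -1.77 and -2.20. The virgin and gestation day 10 arrays were on another slide, and the slide's part in those levels was not tested.

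**Figure D3:**
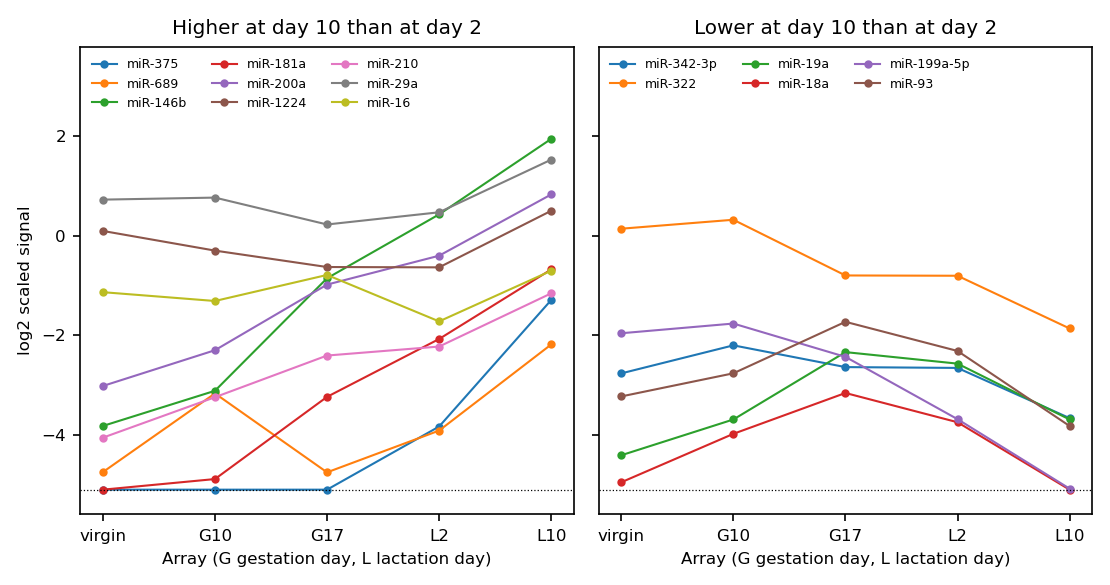
Lines show the log2 scaled signal of each of the 9 higher (left) and 6 lower (right) miRNAs on the 5 mouse arrays, virgin to lactation day 10, with the floor dotted. All 9 on the left end at their highest level, and miR-93, miR-19a and miR-18a on the right peak at gestation day 17.

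The miR-17-92 cluster and its paralogues, which drive proliferation and are induced by Myc, had differences below 0 on the scaled values. Of 13 members on the array 9 were detected, and all 9 had a difference below 0. On the scaled values with the floor 3 passed 2-fold lower, against 4.03% among all 149. The list was chosen with earlier results known, and these 3 had already been named above. Of these 3, miR-18a had no probe well above background at day 10, and the single such probe of miR-19a gave -0.93. The median of the 9 was -0.75, against 0 for all 149. Beside miR-93, miR-19a and miR-18a, the signals at day 10 and day 2 were 78.9 and 213 for miR-92a (-0.75 ± 0.04), 23.8 and 65.9 for miR-20b (-0.79 ± 0.05), 114 and 270 for miR-20a (-0.56 ± 0.03) and 200 and 430 for miR-19b (-0.42 ± 0.03). miR-25 and miR-106b, which share the transcript of miR-93, were at -0.62 ± 0.04 and -0.51 ± 0.03. The group median remained below 0 under all 9 other scalings and signal choices, between -1.31 without scaling and -0.07 in the authors' table. Relative to the median of all 149 under the same setting it lay between -0.91 and -0.23. Single members, among them miR-19b, lay above 0 in the authors' table, where values moved by a median of 0.68. miR-17, miR-106a, miR-18b and miR-363 were not detected on either day.

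The miR-15/16 seed family, which slows the cell cycle, did not move as one. Of its 6 detected members, miR-16 was 1.02 higher and miR-15a 0.34 ± 0.02 higher, both from the cluster at chr14:62250773-62250933. The other 4 lay below 0: miR-322 as above, miR-497 at -0.66 ± 0.03, miR-15b at -0.58 ± 0.02 and miR-195 at -0.38 ± 0.03. miR-497 and miR-195 share a cluster at chr11:70048234-70048584, with signals of 91.5 and 115 at day 10 and 231 and 239 at day 2. Within this family, members of 1 cluster thus had the same sign. The family median was -0.48 and turned to 0.20 in the authors' table, but relative to the median of all 149 it was below 0 under every setting run. The files give 1 locus per miRNA, and miR-16 has another copy in the genome.

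In the miR-29 family 1 of 3 members and in the miR-181 family 1 of 4 was at least 2-fold higher, against 6.04% of all 149, and none was 2-fold lower. These counts are too small to set apart from that share. Both called members are among the 9 already named, and the lists were chosen with earlier results known. The other miR-29 members and 2 of the other miR-181 members lay above 0 by less. miR-29b had a scaled signal of 0.862 at day 10 and 0.438 at day 2 (0.98 ± 0.02), and miR-29c, from the same cluster on chromosome 1, had a signal of 76.0 at day 10 and 80.3 at day 2 (0.60 ± 0.03). With miR-29a, all 3 were above 0 and the median was 0.98. It remained above 0 under all 9 other settings, between 0.30 and 1.66. miR-181b, beside miR-181a on chromosome 1, had a signal of 134 at day 10 and 115 at day 2 (0.90 ± 0.02). miR-181c was at 0.56 ± 0.06, while miR-181d had no probe well above background at day 10. The median of the 4 was 0.73, between 0.04 and 1.40 under the other settings. Near-identical members of a family can hybridise to each other's probes, which cannot be resolved from these files.

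The miR-200 family split in sign within its chromosome 4 cluster. Of 5 members, 1 was at least 2-fold higher and none 2-fold lower, against 6.04% and 4.03% of all 149, counts too small to set apart. At chr4:155428025-155429844, miR-200a was 1.23 higher and miR-200b 0.73 ± 0.02 higher, with a miR-200b signal of 1116 at day 10 and 1077 at day 2. miR-429, in the same cluster, was at -0.67 ± 0.03, with a signal of 186 at day 10 and 473 at day 2. On chromosome 6, miR-200c was at 0.43 ± 0.02 and miR-141 at -0.01 ± 0.02. Neither cluster nor seed grouped them, since miR-200b, miR-200c and miR-429 share 1 seed and miR-200a and miR-141 another. Both probes of miR-429 were below 0 (-0.69 and -0.64) and both of miR-200a above 1. The spread of 1.90 within the chromosome 4 cluster was the widest of the 27 clusters, that is, of sets of 2 or more of the 149 miRNAs with gaps of at most 10000 bases between neighbours, for which the median spread was 0.56. Spread widens with member number, and this cluster has 5 members while many have 2. Some clusters also hold members set to 0 at the floor, so the median spread is not a like measure. The family median of 0.43 turned to -0.25 without scaling, but relative to the median of all 149 it was above 0 under every setting run (0.15 to 0.71).

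Milk-abundant miRNAs showed no common shift, although 3 of the 15, miR-375, miR-146b and miR-200a, were at least 2-fold higher (against 6.04% of the 149) and none was 2-fold lower. The list was chosen with earlier results known, and these 3 had already been named above. miR-148a had a signal of 1045 at day 10 and 1579 at day 2, and scaled signals of 4.25 and 4.00, so the difference was 0.09 ± 0.01. miR-21, a growth-associated miRNA, had 491 and 1136 (-0.53 ± 0.03). The list median was 0.16 and turned below 0 without scaling (-0.52). It came to 0 with quantile normalization and to -0.0003 with the brightest probe. let-7 members, which oppose growth, lay between -0.24 for let-7c and 0.49 for let-7g, apart from miR-98, which was not well above background at day 10. The family had a median of 0.11 that turned below 0 without scaling, with quantile normalization and with the brightest probe. The miR-30 family lay between -0.03 and 0.52 with a median of 0.19, below 0 without scaling. None of the 9 let-7 and 5 miR-30 members reached 2-fold, a count too small to set apart from the 10.1% among all 149.

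**Figure D4:**
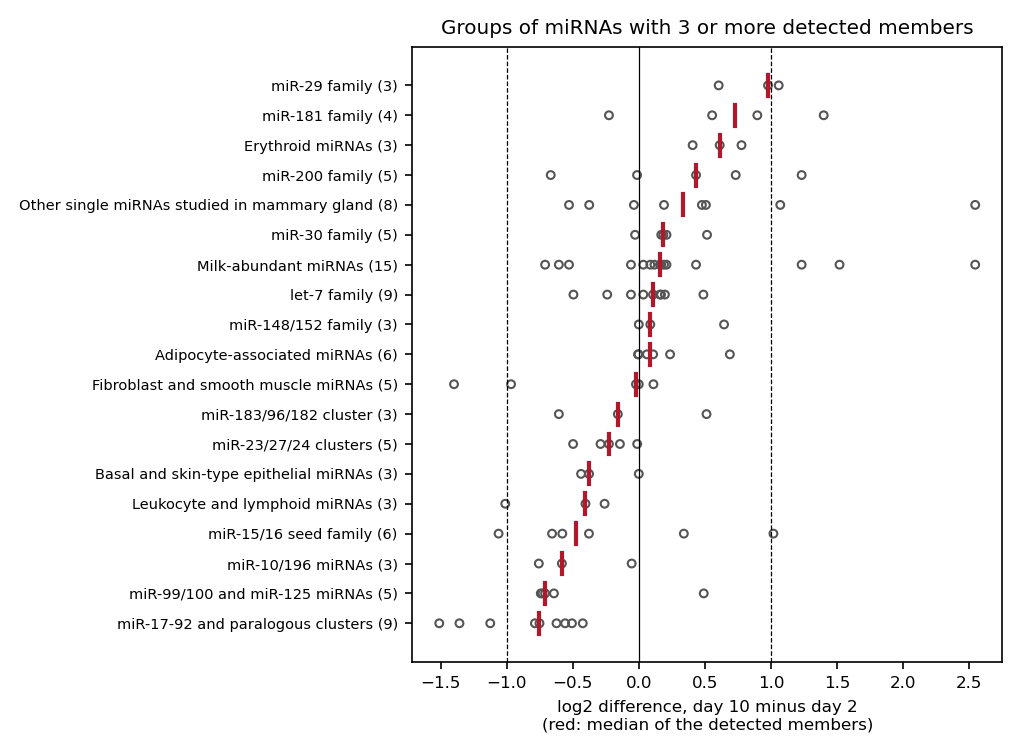
Each row is a group of miRNAs with 3 or more detected members (number in brackets), each circle the log2 difference of a member and each red bar the median. The miR-29 median lies at 0.98 and that of the miR-17-92 group at -0.75, whose members all lie below 0.

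Summed signals of cell type markers differed between the days, though members of a type did not always share a sign. In bulk tissue fewer cells of a type and less RNA per cell cannot be told apart. The 5 miR-200 family members, detected on both days, summed to 14.1 scaled units at day 10 and 10.6 at day 2. Of them 3 lay above 0, while miR-429 (-0.67) lay below and miR-141 (-0.01 ± 0.02) was near 0, and the family median turned to -0.25 without scaling. Fibroblast and smooth muscle markers were detected for 3 of 5 at day 10 and 5 of 5 at day 2, and summed to 0.659 and 0.938. Within them miR-199b had a signal of 58.3 at day 10 and 183 at day 2 (-0.97 ± 0.04), while miR-143 was at 0.11 ± 0.02. The median difference of these markers was -0.02, the value of miR-214, which was at the floor at day 10. With a floor 4 times lower the median was -0.97. Endothelial markers summed to 1.41 at day 10 and 2.08 at day 2, nearly all of it miR-126-3p, which keeps vessels intact (-0.56 ± 0.02). Leukocyte markers were detected for 2 of 5 on each day and summed to 0.304 at day 10 and 0.396 at day 2, with miR-150, miR-155 and miR-142-5p undetected. The median difference of the leukocyte list was -0.40 and turned to 0.10 with normexp and 0.27 in the authors' table. That of the endothelial list was -0.28 and turned to 0.060 in the authors' table. It was -0.58 with a floor 4 times lower, since miR-126-5p was at the floor on both arrays. Basal epithelial markers summed to 0.166 at day 10 and 0.217 at day 2, and the median of the basal list (-0.38) turned to 0.020 with normexp. These sums and differences are on the scale of the 75th percentile. Red cell markers, all 3 detected, summed to 3.96 at day 10 and 2.60 at day 2, and miR-451, which red cell precursors need, was 0.61 ± 0.01 higher, although the red cell median turned to -0.07 without scaling. The striated muscle markers (miR-1, miR-133a, miR-133b and miR-206), the liver marker miR-122 and the neural markers miR-124 and miR-9 were not detected on either day. miR-192, which liver and gut share, was detected on both days, with a signal of 12.5 at day 10 and 8.81 at day 2, and was not well above background at day 2. The part of these shifts in the differences between the days was not tested.

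In the remaining groups no named member reached 2-fold, and signs were often mixed. miR-130a, with its relative miR-301a not well above background at day 10, was at -0.89 ± 0.04, with a signal of 41.6 at day 10 and 124 at day 2. miR-99a and miR-125b-5p, whose genes lie in clusters with let-7 members, were at -0.71 ± 0.06 and -0.73 ± 0.02, while miR-125a-5p was at 0.49 ± 0.03. miR-10a, of the Hox clusters, was at -0.58 ± 0.07 and miR-10b at -0.05 ± 0.03. The 5 members of the miR-23/27/24 clusters lay between -0.50 and -0.01, with a median of -0.23 that turned above 0 in the authors' table and with the control probes. miR-107, which acts on insulin sensitivity, was at 0.69 ± 0.02, while its near twin miR-103 was at 0.11 ± 0.03 and the other adipocyte-associated members lay between -0.01 and 0.24. miR-152, a relative of miR-148a, was at 0.65 ± 0.05. miR-212 was at 0.51 ± 0.05, with miR-132 of its cluster undetected, and miR-205, a basal epithelial miRNA, was at -0.38 ± 0.04. miR-96 was at 0.51 ± 0.02 and miR-182 at -0.60 ± 0.07, with opposite signs in 1 cluster, though miR-182 turned above 0 (0.073) with normexp. miR-10a (0.16) and miR-205 (0.12) did so too.

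Detection differed between the days mostly near the limit. The 24 miRNAs detected at day 2 alone had signals of 7.47 to 29.3 there (median 11.3), and 7 of them had a probe well above background at day 2. The 5 detected at day 10 alone, let-7b*, miR-188-5p, miR-191*, miR-34b-5p and miR-34c, had signals of 6.73 to 12.7, and none had a probe well above background. Of the 149 miRNAs, 97 had a probe well above background on both arrays, 2 at day 10 alone, 20 at day 2 alone and 30 on neither. For 4 of these 22 a bound above 1-fold could be given: at least 1.40-fold higher for miR-702, 1.06-fold higher for miR-192, 1.12-fold lower for miR-98 and 1.02-fold lower for miR-199a-5p.

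The same 2-fold rule was applied to the earlier mouse steps. It called 10.1% of 149 miRNAs at lactation day 10 against day 2. At lactation day 2 against gestation day 17 it called 11.6% of 199, of which 4.52% of the 199 were higher and 7.04% lower. At gestation day 17 against day 10, the only mouse step across slides, it called 15.1% of 205. At gestation day 10 against virgin gland it called 9.15% of 164. The middle 50% of differences spanned 0.88 at lactation day 10 against day 2 and 0.40 at the step before it, but 0.904 and 0.699 over the miRNAs well above background on both arrays of each step. These steps share arrays, and each has 1 array a side, so the difference between them was not tested.

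**Figure D5:**
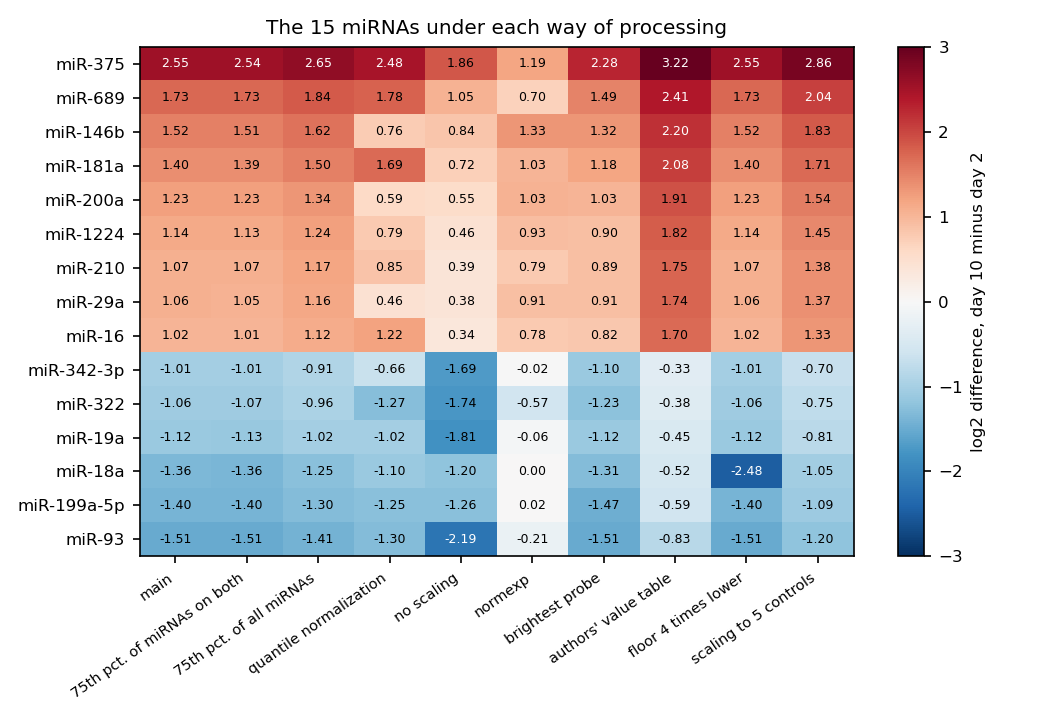
Each cell gives the log2 difference, day 10 minus day 2, of 1 of the 15 miRNAs (rows) as reported (main) and under 9 other ways of scaling or processing (columns), red above 0 and blue below. The 9 higher miRNAs range from 0.34 to 3.22 and stay above 0 throughout, and the 6 lower ones lie between -0.57 and 0.020 under normexp.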

How the data were processed

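The deposited scanner files hold intensity values on a linear scale, background-subtracted and spatially detrended within each array but not scaled between arrays, per the file headers. The headers name Agilent Feature Extraction 10.5.1.1, and the submitters' processing notes name version 9.5. RNA had an integrity number of at least 6, and 100 ng was labelled with Cy3, per the labels' protocols. Both arrays lay on slide 1. The authors' value table, also an intensity, equalled the software's total signal per miRNA times a constant of 3.73 at day 10 and 1.45 at day 2, within 0.1% for 98.6% and 100% of miRNAs above a total signal of 50. Its column medians were -11.6 and -2.35. What the constants scale or centre to is unknown. A higher value in it stands for a stronger signal, as in the scanner files. The differences between the days did not match, with 33 miRNAs higher and 0 lower in it, against 2 and 31 in the unscaled scanner values.

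Processed signals of mouse probes were averaged over spots without outlier marks, then over the probes of a miRNA, and divided by the array's 75th percentile over the 94 miRNAs found on every array. The floor was the highest, over the 10 arrays, of the 5th percentiles of detected miRNAs. No spot was saturated. A probe counted as well above background when most of its spots carried that mark. Differences were computed in Python 3.11.15, and normexp in R 4.3.3 with limma 3.58.1. A simplified form of the procedure was tried on data simulated from the day 2 array. It held 99 miRNAs with day 2 signals above 20, of which 20 were raised and 20 lowered 4-fold. The scaling percentile and the floor were taken from these 99 miRNAs, so both differed from those used above. With changed miRNAs drawn from signals above 20, 20 raised and 14 lowered ones passed 2-fold, since dim miRNAs that are lowered end at this floor. This simulation missed the recovery first required of it, and a second one, restricted to signals above 80, was added afterwards and recovered all 40. None of the 59 unchanged miRNAs was called in either, but their median estimate was -0.39 and -0.57 instead of 0, because the scaling percentile itself moves when many miRNAs change. Noise was added to spots only, so the absence of calls does not bear on differences between 2 samples. No test across arrays was run. The named miRNAs were up to the 15 most extreme on each side past 2-fold and well above background on both arrays. Those past 2-fold with no probe well above background on 1 of the 2 arrays were added. Members of the lists, which also stand in for seed families, were named too. The control probe scaling uses 5 probes picked after the control spots had been seen. The members and lists were chosen with earlier results of these data known, and the lists come from general knowledge. Striated muscle, liver and neural lists had 0, 1 and 0 detected members, and Dlk1-Dio3 had 1 of 34 (miR-494, at -0.13).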

Additional observations from a re-analysis of the deposited data

Results flagged for a closer look

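Probes for a mouse gammaherpesvirus lie outside the mouse miRNAs described above, and 1 of the 10 viral miRNAs, mghv-miR-M1-2, was marked as detected. Its mean signal was 23.3 at day 10 and 25.2 at day 2, and it was marked as detected on all 10 arrays of the series, sheep included. What the signal stems from was not tested.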

How the results depend on the processing

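The counts of at least 2-fold higher and lower miRNAs, 9 and 6, were 9 and 6 when scaled to the miRNAs detected on both arrays, 9 and 5 among the 120 detected on both, 10 and 4 with the percentile of all miRNAs, and 6 and 9 with quantile normalization. They were 2 and 31 without scaling, 4 and 0 with normexp, 5 and 8 with the brightest probe, 33 and 0 in the authors' value table, 14 and 16 with a floor 4 times lower, and 13 and 3 with the control probes, a scaling chosen after seeing the data. The median over all 149 miRNAs was -0.40 without scaling, 0.40 in the authors' table and 0.23 with the control probes. Without scaling each miRNA moved by a median of -0.68, in the authors' table by 0.68, with the control probes by 0.31 and with the brightest probe by -0.16. All 9 higher miRNAs stayed above 0 under these settings, and the lower ones below 0, except that under normexp miR-199a-5p turned to 0.0202 and miR-18a came to 0. For the 9, settings that only rescale the arrays cannot turn the sign, since their shifts are smaller than the log2 threshold of 1. Relative to the median of all members, all 9 lay above it (0.46 or more) and all 6 below it under every setting. Differences of dim miRNAs depend on the floor and on background correction. No paired analysis was possible because each day has 1 array and the labels give no animal numbers.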

Other observations

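Passenger strands, the star forms of the precursor's other arm, made up 13 of the 149 miRNAs, of 114 on the array. None was 2-fold higher or lower, against 10.1% of all 149, a gap too small to read with 13 members. Their median difference was 0, and 4 of them lay at the floor on both arrays, which sets their difference to 0.

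Among the 97 miRNAs well above background on both arrays, bins of 32, 32 and 33 by mean signal had median differences of -0.002, -0.002 and 0.16, low to high. At least 2-fold higher were 2 of 32, 3 of 32 and 4 of 33 in the same order, and 2-fold lower 3, 1 and 0.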
